A study of Mus musculus with 2 samples.

Results

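The Hox genes of the 4 mammalian clusters were examined in single-nucleus RNA sequencing of developing mouse kidneys. The members were the genes named Hoxa, Hoxb, Hoxc or Hoxd followed by a number, which gave 39 of the 32285 genes counted, with 11 in the A cluster on chromosome 6, 10 in the B cluster on chromosome 11, 9 in the C cluster on chromosome 15 and 9 in the D cluster on chromosome 2. They were chosen by name alone, though earlier results of these data were known. One library was made from E18.5 kidneys carrying Mycf/f;Mycnf/f alleles and no Cre on a mixed background, and 1 library from P3 kidneys of wild-type C57BL/6J mice, whereas the methods of the study give a mixed background at both ages. Kidneys of male and female mice were pooled before nuclei were isolated, and neither library was replicated. Age cannot be told apart from genotype, background or library, and nothing below tests a condition. The intervals given are exact 95% intervals that cover counting error alone, since nuclei of a library are no replicates.

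Hox genes encode homeodomain transcription factors that assign position along the body axis. In each cluster the genes lie in the order of their paralog numbers, and low numbers are in general switched on earlier and further forward in the embryo than high numbers, a property called collinearity. Genes with the same number in different clusters are paralogs and often act redundantly. In the kidney, the Hox11 paralogs are known for their part in the metanephric mesenchyme, where their combined loss prevents growth of the ureteric bud, the Hox10 paralogs for their part in the stroma, and Hoxb7 as the source of a promoter widely used to drive transgenes in the ureteric bud.

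After quality limits, 21270 nuclei with 77321253 unique molecular identifiers (UMIs) remained at E18.5, where the median nucleus had 3132.5 UMIs. At P3, 11765 nuclei with 70055219 UMIs remained, and the median nucleus had 4534. The libraries shared 69 barcodes. Each library was clustered without any feature of the Hox loci, and a cluster took the name of a class, with the ending "-like", if no fewer than 3 of the markers of that class were raised in it and no further rule, given with the methods, left it unnamed. This ranged at E18.5 from 3 of 7 for the early nephron-like class, whose second class was the ureteric epithelium, to 8 of 8 in podocyte-like and endothelium-like clusters. This gave 13 classes at both ages. They ranged from 77 urothelium-like nuclei to 3177 interstitium-like nuclei at E18.5, and from 32 mural-like to 3000 interstitium-like nuclei at P3. Clusters that received no name held 38.3% of nuclei at E18.5 and 34.6% at P3. All named nuclei of a class were summed, and a level is the UMIs of a gene divided by all UMIs of that class and put on the usual CPM scale. Levels of single genes were compared mainly for the same gene between classes. Shares, sums and plots along a cluster also set genes side by side. Differences in how fully each gene is counted, as from overlapping spans, can enter those.

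The members together held 148138 UMIs at E18.5 and 121493 at P3. At least 50 UMIs were found for 31 members at E18.5 and 30 at P3. The members below that limit lay at both ends of the clusters. Hoxb1, which acts in the hindbrain, had 7 UMIs in the E18.5 library and 11 in the P3 library, and Hoxd1 had 15 and 10. Of the genes with the number 13, which act at the end of the body axis and in the limb, Hoxa13 had 1 UMI and Hoxd13 had 2 at E18.5 and each had 0 at P3, and Hoxc13 had 3 at each age. Hoxb13 and Hoxc12 had 0 at both ages, which allows up to 0.0388 CPM at E18.5 and 0.0428 at P3. Hoxd12 had 83 UMIs in the earlier and 36 in the later library. Of all Hox UMIs, paralog groups 1 to 4 gave 34.6% at E18.5 and 34.5% at P3, groups 9 to 11 gave 32.8% and 32.4%, and groups 12 and 13 gave 0.0601% and 0.0321%.

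Among the named classes, summed Hox expression was highest in nephron progenitor-like nuclei at both ages. These are the cells that condense around ureteric tips and give rise to nephrons. The sum was 2843 CPM at E18.5 (95% interval 2811 to 2876) and 3271 at P3 (3214 to 3328). Early nephron-like nuclei followed with 2689 CPM at E18.5 and 2563 at P3, then ureteric epithelium-like nuclei with 2159 CPM at E18.5 and 2315 at P3. At P3 the early nephron-like class joined a cluster led by Rmst and Lrp4 with 3224 CPM (3134 to 3317), whose interval overlapped that of the progenitor-like class, and a cluster led by Grid1 and Cdh6 with 1668 CPM (1593 to 1746), so the class level is that of a mixture. In interstitium-like nuclei it was 1893 CPM at E18.5 and 1768 at P3, and in loop of Henle-like nuclei 1787 CPM at E18.5 and 1775 at P3. The ratio of neighbors in this order was 1.06 (1.03 to 1.08) between the first and second class at E18.5 and 1.28 (1.24 to 1.31) at P3. Loop of Henle-like, interstitium-like, distal tubule-like and mural-like nuclei were neighbors in that order at P3, and the interval of each neighboring ratio among them held 1, as it did between mural-like and intercalated-like nuclei.

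Among the lower classes were urothelium-like nuclei with 1255 CPM at E18.5 and 1026 at P3, intercalated-like nuclei with 1210.3 CPM at E18.5 and 1311 at P3, podocyte-like nuclei with 982 CPM at E18.5 and 1129 at P3, proximal tubule-like nuclei with 1241 CPM at E18.5 and 769 at P3 and endothelium-like nuclei with 922 CPM at E18.5 and 684 at P3. Leukocyte-like nuclei, which descend from blood-forming tissue outside the kidney, had the lowest sum, 691 CPM at E18.5 (95% interval 610.1 to 779.9) and 384 at P3 (326 to 449.6). Transcripts free in the nuclei suspension can be counted in any droplet, so leukocyte-like levels are given below as a reference. Some Hox genes, Hoxa9 among them, are also known in blood cells, and the reference may hold their own transcripts. Each library had an unnamed cluster with hemoglobin and ribosomal genes among its leading genes, after Muc16, Camk1d and Igf2 at E18.5. These clusters had median depths of 1259 UMIs at E18.5 and 971 at P3. Their Hox sums were 1731 CPM (1691 to 1771) and 1875 CPM (1814 to 1937), close to the 1916 and 1734 CPM of the whole libraries.

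**Figure D1:**
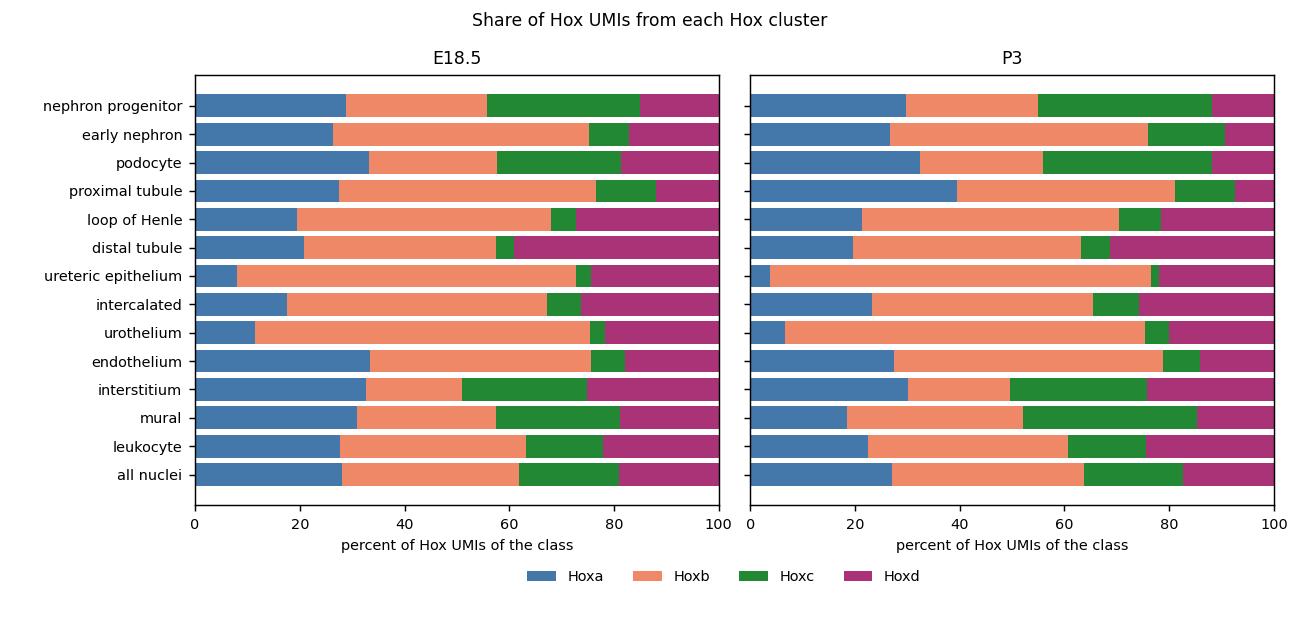
Stacked bars give the share of all Hox UMIs, in percent, from the A, B, C and D clusters in each class at E18.5 and at P3. The B cluster fills 64.8% and 72.8% of the ureteric epithelium-like bars, while the C cluster fills 29.1% and 33.3% of the nephron progenitor-like bars.

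The 4 clusters contributed differently to that sum in each lineage, as the plot of cluster shares shows. In ureteric epithelium-like nuclei, the B cluster gave 64.8% (63.8 to 65.9) of Hox UMIs at E18.5 and 72.8% (71.6 to 73.9) at P3, and the D cluster 24.3% and 21.96%. The A cluster gave 7.93% and 3.71% there, and the C cluster 2.89% and 1.53%. The Hox transcripts of the named ureteric nuclei thus came mostly from the B and D clusters. This depends at P3 on which nuclei take that name, since with called doublets removed a further cluster of 329 nuclei took it, and the B share in that cluster was 52.4%. It was led by Nrcam, Pappa2 and Lgr5, with 4 of 11 ureteric markers raised and the distal tubule as second class. In the same clustering, the cluster with Ros1 and Ret among its leading genes had 9 of 11 raised and a B share of 74.8%. The cluster led by Slc14a2 had 7 of 11 raised and a B share of 69.2%. In nephron progenitor-like nuclei the A, B and C clusters gave 28.8%, 27.1% and 29.1% at E18.5 and 29.7%, 25.3% and 33.3% at P3. Interstitium-like nuclei had 32.7% from the A, 18.3% from the B, 23.8% from the C and 25.2% from the D cluster at E18.5, with 30.1%, 19.6%, 26.1% and 24.2% at P3. The B cluster was the smallest part of the interstitial sum and the largest part of the ureteric sum.

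The share of paralog groups also differed between lineages. Groups 9 to 11 gave 41.6% (40.9 to 42.3) of interstitium-like Hox UMIs at E18.5 and 41.4% (40.8 to 42.02) at P3. In ureteric epithelium-like nuclei they gave 15.4% (14.7 to 16.2) and 10.9% (10.1 to 11.7), while groups 1 to 4 gave 50.9% (49.8 to 52.0) and 53.8% (52.5 to 55.1). Urothelium-like nuclei, from the lining of the renal pelvis, resembled the ureteric class in the B share, which was 64.1% and 68.7%. Early nephron-like nuclei had 48.9% and 49.3% from the B cluster and 7.54% and 14.7% from the C cluster, which lay between the progenitor-like and the ureteric values for both clusters.

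**Figure D2:**
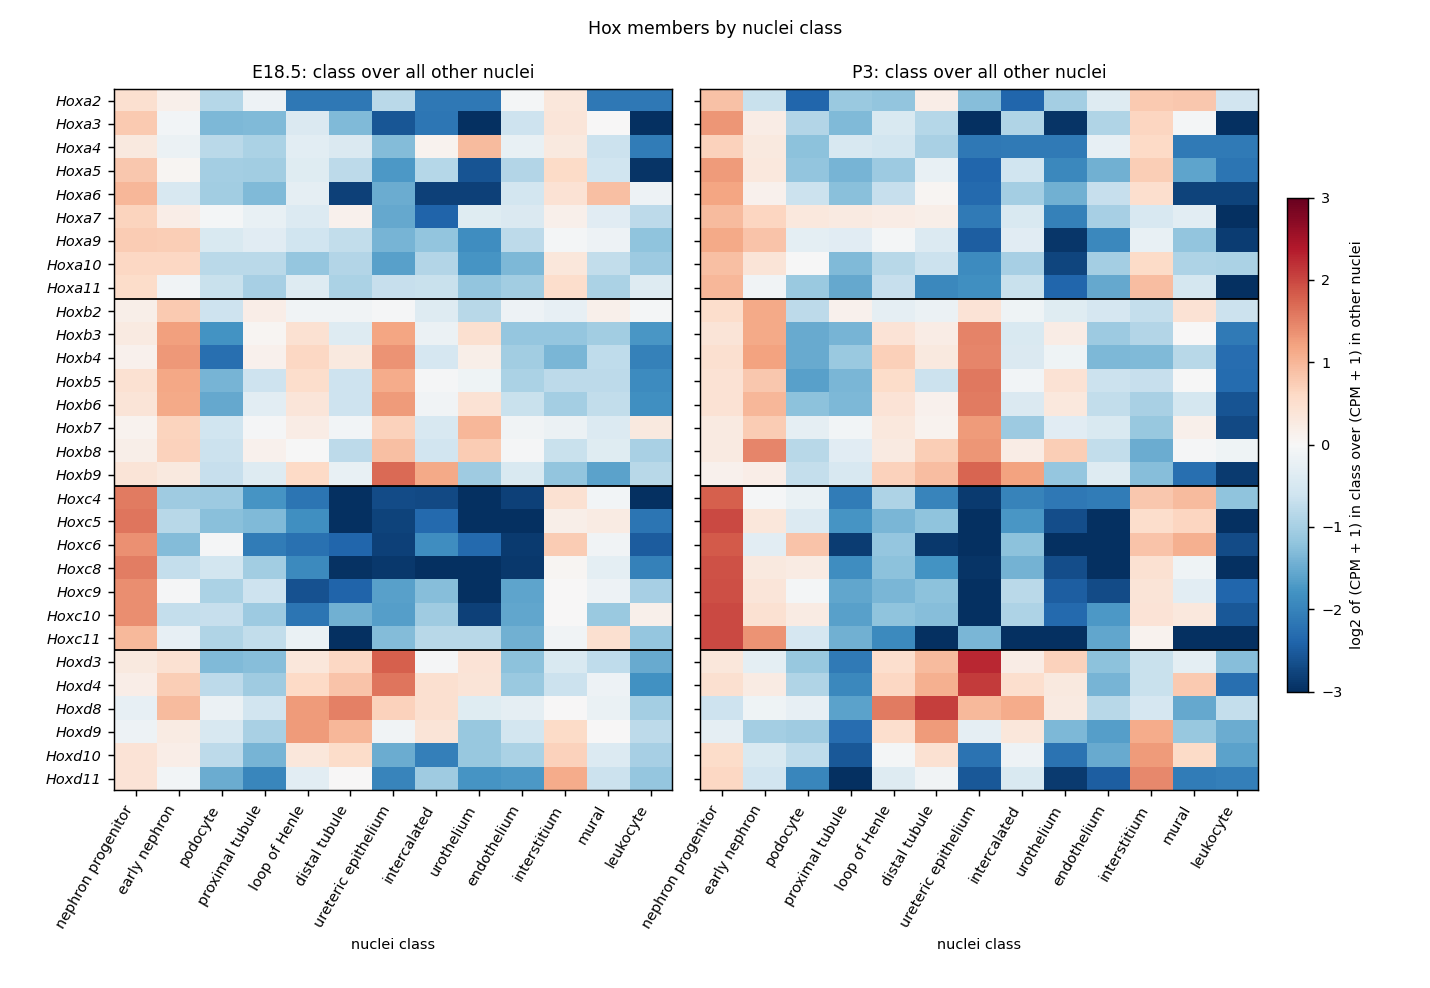
Each cell gives the log2 ratio of a member's level (CPM, 1 added) in a class to that in all other nuclei, for the 30 members with at least 50 UMIs at both ages, with classes along one axis, members by cluster along the other and colors that saturate at 3 on either side. C cluster genes are high in the nephron progenitor-like class and low in the ureteric epithelium-like class, where most B cluster genes and Hoxd3 and Hoxd4 are high.

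Genes of the C cluster were those most raised in nephron progenitor-like nuclei, and the plot of class ratios shows them as a block there. The sum of the cluster was 828 CPM at E18.5 (95% interval 811 to 846) and 1088 at P3 (1055 to 1121), against 451 CPM at E18.5 and 462 at P3 in interstitium-like nuclei. Its ratio to all other nuclei was 2.83 (2.76 to 2.90) at E18.5, and at P3 it was 3.79 (3.67 to 3.92). The ureteric epithelium-like sum was 62.3 CPM at E18.5 and 35.4 at P3, which is below the leukocyte-like reference of 102 (72.9 to 140.1) and 57.0 (36.1 to 85.5), and is not read as expression. Endothelium-like nuclei were no higher than that reference either, with 58.8 CPM at E18.5 and 48.7 at P3.

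The 7 C cluster members with at least 50 UMIs were each highest in nephron progenitor-like nuclei at both ages. Hoxc4 (chr15:103018934-103036852) had 175 CPM at E18.5 (95% interval 167 to 184) and 217 at P3 (203 to 232), against 98.3 CPM at E18.5 and 107 at P3 in interstitium-like nuclei. Hoxc5 had 181 CPM at E18.5 and 280.1 at P3, and Hoxc6 had 200.02 CPM at E18.5 and 218 at P3. Hoxc8 and Hoxc9, which act in thoracic segments, had 132 and 59.3 CPM at E18.5 and 176 and 101 at P3. Hoxc10 had 67.2 CPM at E18.5 and 67.8 at P3, and Hoxc11 had 13.2 CPM at E18.5 and 28.1 at P3. The ratio of the first to the second class ranged from 1.27 (0.571 to 3.53) for Hoxc11 to 2.25 (2.04 to 2.48) for Hoxc8 at E18.5. The annotated span of Hoxc5 overlaps the genes Hoxc6, Hoxc8, Hoxc9 and Hoxc10 on the same strand, so reads could be divided among these in ways that the counting rule decides.

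At 2-fold or more over other nuclei, 7 of 31 members were higher in nephron progenitor-like nuclei at E18.5, where 2.47% of all genes with at least 50 UMIs were, and 11 of 30 at P3, where 4.93% were. At E18.5 these were Hoxa6 and 6 genes of the C cluster from Hoxc4 to Hoxc10. At P3 they were Hoxa3, Hoxa5, Hoxa6, Hoxa9 and the 7 C cluster genes. No member was 2-fold lower in this class at either age.

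The C cluster did not end with the progenitors. Podocyte-like nuclei, which line the glomerular filter, had 233 CPM at E18.5 and 365 at P3 for the sum, above the ureteric level at both ages. Hoxc6 gave 91.6 CPM at E18.5 (95% interval 79.0 to 106) and 123 at P3 (104 to 145) of it. Early nephron-like nuclei had 203 CPM at E18.5 and 376 at P3. Proximal tubule-like nuclei had 142 CPM at E18.5 (134 to 151) and 87.3 at P3 (81.3 to 93.6). Both levels lay above the reference, but their intervals overlapped the leukocyte-like intervals of 72.9 to 140.1 and 36.1 to 85.5. A ratio to the reference was not computed, so a difference from it is neither read nor excluded. In interstitium-like nuclei Hoxc6 had 145 CPM at E18.5 and 108 at P3, against 13.1 CPM at E18.5 and 6.69 at P3 in ureteric epithelium-like and 15.8 CPM at E18.5 and 9.91 at P3 in leukocyte-like nuclei.

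The A cluster was highest in nephron progenitor-like, then in early nephron-like and interstitium-like nuclei. Its sum was 818 CPM at E18.5 and 972 at P3 in the first, 708 CPM at E18.5 and 684 at P3 in the second and 619 CPM at E18.5 and 532 at P3 in the third. Ureteric epithelium-like nuclei had 171 CPM at E18.5 (95% interval 158 to 185) and 85.8 at P3 (74.8 to 97.96), and in leukocyte-like nuclei 192 (150.4 to 241) and 86.7 (60.4 to 121). The ureteric level of the A cluster was therefore no higher than the reference at either age.

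Hoxa9 (chr6:52223100-52231089) had 285 CPM at E18.5 and 416 at P3 in nephron progenitor-like and 297 CPM at E18.5 and 349 at P3 in early nephron-like nuclei, and its ratio of first to second class was 1.04 (0.973 to 1.12) at E18.5, with early nephron-like nuclei first, and 1.19 (1.10 to 1.29) at P3, with progenitor-like nuclei first. Hoxa3, which patterns the thymus and parathyroid, had 206 CPM at E18.5 and 232 at P3 in progenitor-like and 164 CPM at E18.5 and 140.2 at P3 in interstitium-like nuclei, against 10.5 CPM at E18.5 and 9.91 at P3 in leukocyte-like nuclei. Its annotated span overlaps those of Hoxa4, Hoxa5 and Hoxa6. Hoxa10 had 178 CPM at E18.5 and 139.5 at P3 in progenitor-like nuclei, and at E18.5 186 in early nephron-like nuclei. Early nephron-like nuclei had 124 CPM at E18.5 and 116 at P3 of Hoxa3, so that Hoxa9 and Hoxa10 kept nearly their progenitor-like level there at E18.5 and Hoxa3 did not. The leukocyte-like levels of Hoxa9 and Hoxa10 were 78.8 and 57.8 CPM at E18.5 and 27.3 and 39.7 at P3. Hoxa7 had 61.8 CPM at E18.5 and 74.3 at P3, Hoxa5 had 43.0 CPM at E18.5 and 59.5 at P3, and Hoxa11 had 24.5 CPM at E18.5 and 23.6 at P3 in progenitor-like nuclei.

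The remaining A cluster genes were scarce. Hoxa2 had 4.801 CPM at E18.5 and 8.05 at P3 in progenitor-like nuclei, where it was first. Hoxa4 was first in urothelium-like nuclei at E18.5 with 7.15 (0.866 to 25.8) CPM and in progenitor-like nuclei at P3 with 5.72 (3.58 to 8.65) CPM. Hoxa6 was first in mural-like nuclei at E18.5 with 12.04 (4.84 to 24.8) and in progenitor-like nuclei at P3 with 13.5 (10.1 to 17.7). For Hoxa2 and Hoxa4 at both ages and Hoxa6 at E18.5, the interval of the ratio of first to second class held 1, so the order of their classes was not resolved at this depth.

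**Figure D3:**
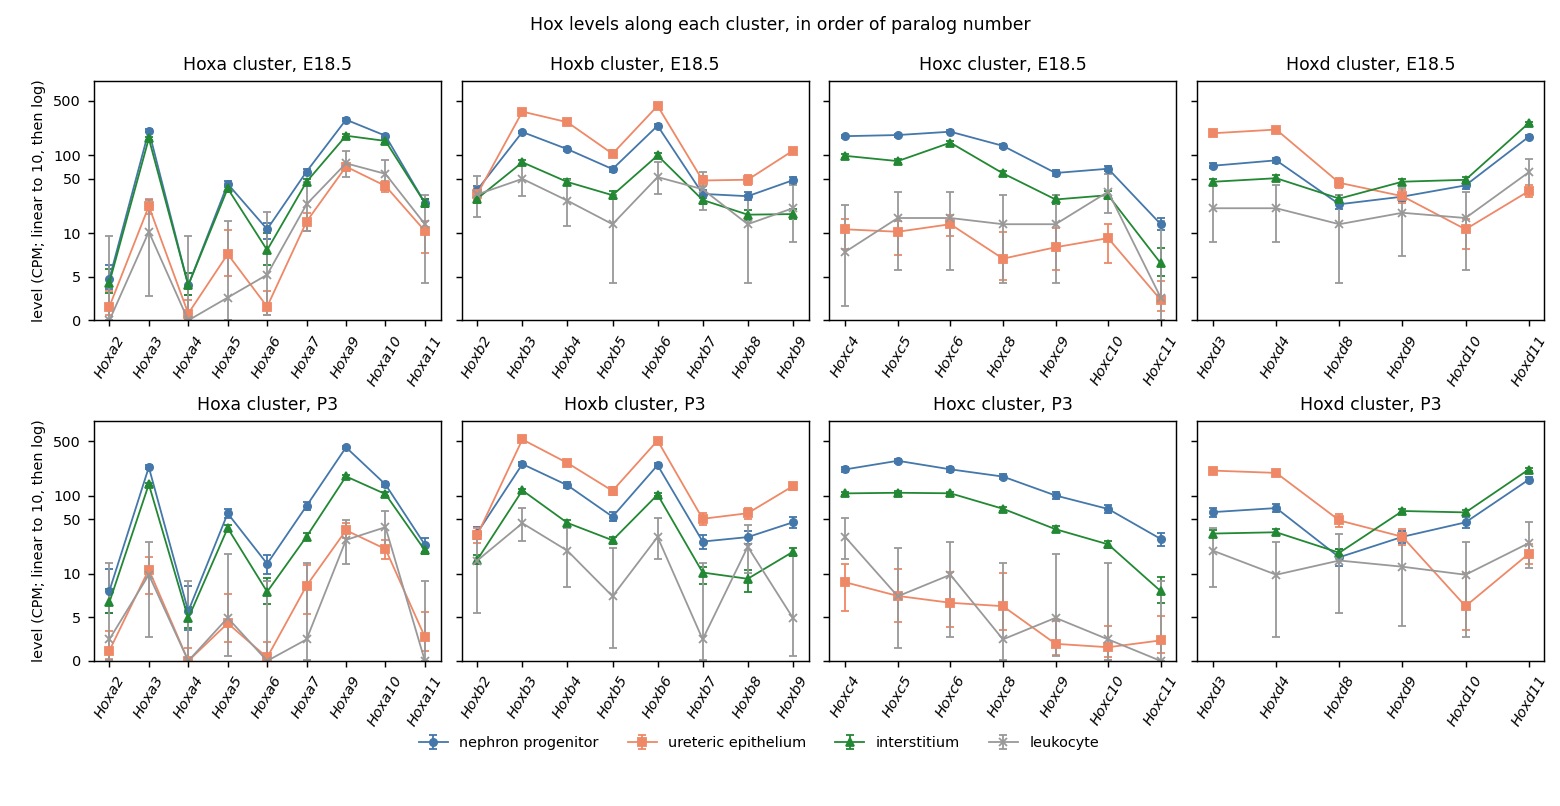
Points give the level in CPM, on an axis that is linear to 10 and then logarithmic, of the 30 members with at least 50 UMIs at both ages, along each cluster, with exact 95% Poisson intervals as bars, in nephron progenitor-like, ureteric epithelium-like, interstitium-like and leukocyte-like nuclei at each age. Along the D cluster the ureteric level falls from 213 CPM for Hoxd4 to 34.7 for Hoxd11 at E18.5, while the interstitial level goes from 50.9 to 257.

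The B cluster was highest in ureteric epithelium-like nuclei, with 1400.3 CPM at E18.5 (95% interval 1363 to 1438) and 1685 at P3 (1635 to 1737), followed by early nephron-like nuclei with 1316 CPM at E18.5 and 1264 at P3. The ratio of the ureteric class to all other nuclei was 2.30 (2.24 to 2.37) and 2.83 (2.74 to 2.92). Interstitium-like nuclei had 347 CPM at E18.5 and 347 at P3, and the leukocyte-like reference was 244 (197 to 299) and 146 (111 to 189).

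Hoxb6 (chr11:96292476-96301569) had 428 CPM at E18.5 (95% interval 407 to 449) and 508 at P3 (481 to 537) in ureteric epithelium-like nuclei, against 52.6 CPM at E18.5 and 29.7 at P3 in leukocyte-like nuclei. Hoxb3 had 361 CPM at E18.5 and 525 at P3 there, and Hoxb4 had 264 CPM at E18.5 and 262 at P3. At E18.5 the early nephron-like levels of these genes were close, with 390.5, 371 and 255 CPM, and at P3 they were lower, with 357, 414 and 223. Ureteric epithelium-like and early nephron-like nuclei thus both had these 3 genes high. At E18.5 the early nephron-like class was a single cluster with Nrcam, Sim2 and Lgr5 among its leading genes and the ureteric epithelium as second class. Those genes also led the P3 cluster of 329 nuclei that was named ureteric epithelium-like without called doublets. The markers therefore leave the identity of the E18.5 class uncertain. Hoxb5 had 104 CPM at E18.5 and 116 at P3 in ureteric epithelium-like and 108 CPM at E18.5 and 69.3 at P3 in early nephron-like nuclei.

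Other B cluster genes had another order of classes. Hoxb9 was first in ureteric epithelium-like nuclei with 114 CPM at E18.5 and 133 at P3, and intercalated-like nuclei of the collecting duct came second with 84.9 CPM at E18.5 and 98.6 at P3, where the interval of the ratio held 1 at both ages. Hoxb2 was first in early nephron-like nuclei with 55.0 CPM at E18.5 and 50.9 at P3. Hoxb8 was first in ureteric epithelium-like nuclei at E18.5 with 48.6 CPM (41.9 to 56.2), against 46.5 (24.7 to 79.5) in urothelium-like nuclei. At P3 Hoxb8 was first in early nephron-like nuclei with 65.5 CPM (56.1 to 76.1), against 59.8 (50.7 to 70.1) in ureteric epithelium-like nuclei. The intervals overlapped at both ages, so neither first rank of Hoxb8 was resolved. Hoxb7 (chr11:96286623-96290162), the source of the ureteric promoter, had 47.6 CPM at E18.5 (95% interval 40.9 to 55.1) and 50.8 at P3 (42.4 to 60.3) in ureteric epithelium-like nuclei and 60.8 (35.4 to 97.3) and 16.8 (8.39 to 30.1) in urothelium-like nuclei. Its ratio to other nuclei in the ureteric class was 1.64 (1.40 to 1.91) at E18.5, and at P3 it was 2.49 (2.06 to 2.98), and its leukocyte-like level was 36.8 (20.1 to 61.7) CPM at E18.5, which overlaps the ureteric interval, and 2.48 (0.0628 to 13.8) at P3. At E18.5 the native Hoxb7 transcript thus marked the ureteric class less sharply than Hoxb4 did, whose ratio was 2.58 (2.41 to 2.75).

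At 2-fold or more over other nuclei, 7 members were higher in ureteric epithelium-like nuclei at E18.5, where 5.3% of all genes were, and 9 at P3, where 6.07% were. They were Hoxb3, Hoxb4, Hoxb5, Hoxb6, Hoxb9, Hoxd3 and Hoxd4 at both ages, with Hoxb7 and Hoxb8 at P3. In the other direction, 16 members were 2-fold lower at E18.5, where 10.3% of genes were, and 18 at P3, where 14.1% were. These were genes of the A and C clusters with Hoxd10 and Hoxd11.

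The ureteric epithelium-like class joined 2 clusters at each age, and they differed in Hox expression. One was led by Ros1 and Slco4c1 and, at P3, also by Gfra1 and Ret, a receptor pair of the ureteric tip, with 617 nuclei at E18.5 and 274 at P3. The other was led by Slc14a2 and Fxyd4, which are known from the collecting duct, with 514 and 165 nuclei. The B cluster sum of the Ros1 cluster was 1.38 (1.30 to 1.46) times that of the Slc14a2 cluster at E18.5 and 1.59 (1.49 to 1.69) times at P3. For Hoxb4 the ratio was 1.65 (1.45 to 1.89) and 1.51 (1.29 to 1.78), and for Hoxb3 1.479 (1.32 to 1.65) and 1.76 (1.57 to 1.98). The D cluster was near 1, with 0.967 (0.885 to 1.06) and 1.15 (1.03 to 1.29). Hoxb2 had 1.42 (0.966 to 2.09) and 4.75 (2.55 to 9.64), where the first interval held 1. Hoxd9 had 0.999 (0.680 to 1.47) and 2.51 (1.47 to 4.47). Whether these 2 ratios differ between the ages was not tested.

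The D cluster divided between lineages along its length. Its sum was highest in distal tubule-like nuclei with 563 CPM at E18.5 and 536 at P3, and ureteric epithelium-like nuclei came second with 526 CPM at E18.5 and 508 at P3, and the intervals of the 2 levels overlapped at both ages. At the low-numbered end, Hoxd3 had 191 CPM at E18.5 (95% interval 178 to 206) and 209.7 at P3 (192 to 228) in ureteric epithelium-like nuclei, which was 2.01 (1.4802 to 2.79) and 2.23 (1.75 to 2.87) times the second class. Hoxd4 had 213 CPM at E18.5 (95% interval 199 to 228) and 196 at P3 (179 to 214) there. Both were low in interstitium-like nuclei, with 45.8 and 50.9 CPM at E18.5 and 32.9 and 34.2 at P3. The annotated spans of Hoxd3 and Hoxd4 overlap on the same strand, so the levels of this pair are not independent.

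In the middle of the cluster, Hoxd8 was first in distal tubule-like nuclei with 80.1 CPM at E18.5 (95% interval 56.4 to 110.4) and 105 at P3 (84.1 to 129.9), and loop of Henle-like nuclei had 67.4 CPM at E18.5 and 72.6 at P3. Hoxd9 was first in loop of Henle-like nuclei at E18.5 with 78.3 CPM and in distal tubule-like nuclei at P3 with 88.05 CPM. These segments hold few nuclei here, from 138 to 309, and their intervals are wide. At the high-numbered end, Hoxd10 and Hoxd11 were first in interstitium-like nuclei, though for Hoxd10 the ratio to the second class was 1.02 (0.666 to 1.64) and 1.28 (0.584 to 3.49) and the first rank was not resolved, and Hoxd12 stayed at or below 1.78 CPM in every class at E18.5.

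Hoxd11 (chr2:74679557-74687016) had 257 CPM at E18.5 (95% interval 247 to 267) and 216 at P3 (209 to 224) in interstitium-like nuclei and 172 (164 to 179.7) and 160.3 (148 to 173) in nephron progenitor-like nuclei. The ratio of the 2 classes was 1.495 (1.41 to 1.59) at E18.5, and at P3 it was 1.35 (1.24 to 1.47). Ureteric epithelium-like nuclei had 34.7 CPM at E18.5 and 18.1 at P3, against 60.4 CPM at E18.5 and 24.8 at P3 in leukocyte-like nuclei. Hoxd11 was thus well above the reference in the interstitium-like and progenitor-like classes, and no higher than it in the ureteric class. Hoxd10 had 48.5 CPM at E18.5 and 61.3 at P3 in interstitium-like and 41.2 CPM at E18.5 and 45.7 at P3 in progenitor-like nuclei. At 2-fold or more over other nuclei, Hoxd11 alone was higher in interstitium-like nuclei at E18.5, where 3.59% of genes were, and Hoxd9, Hoxd10 and Hoxd11 at P3, where 5.9% were.

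**Figure D4:**
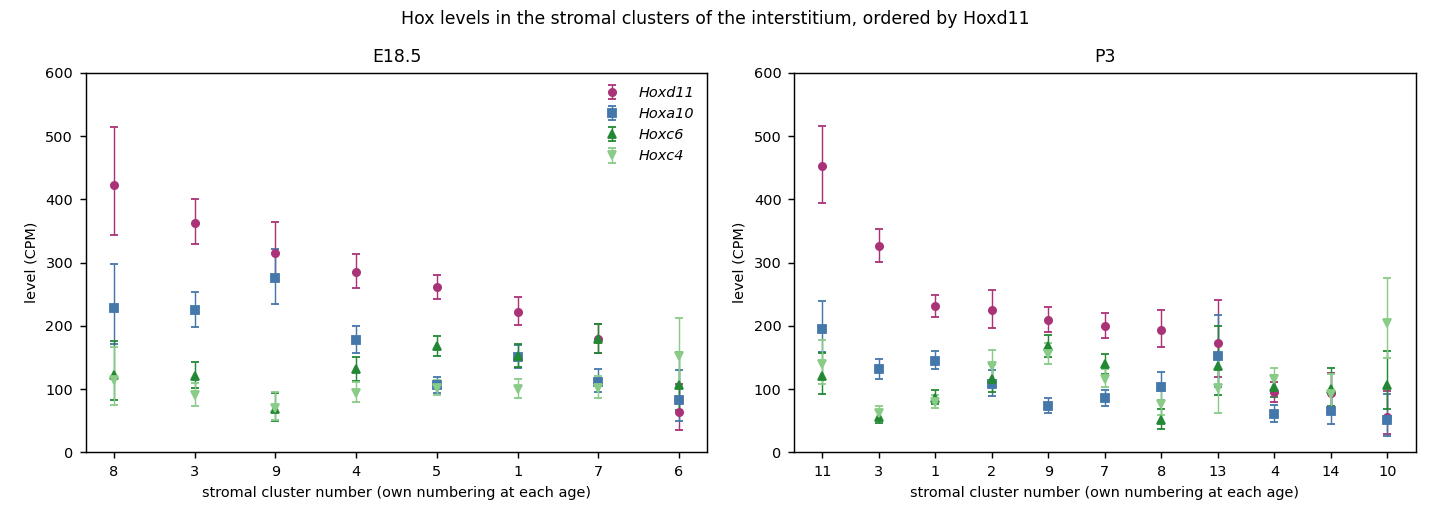
Points give the levels in CPM of Hoxd11, Hoxa10, Hoxc6 and Hoxc4, with exact 95% Poisson intervals, in the stromal clusters of at least 50 nuclei at each age, ordered by the level of Hoxd11. Hoxd11 runs from 64.4 to 423 CPM at E18.5 and from 56.0 to 453 at P3, and Hoxc6 does not follow that order. The P3 cluster of 72 nuclei consisted mostly of called doublets.

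Within the interstitium-like nuclei, clustered again on their own, Hoxd11 varied several-fold between clusters. At E18.5 it was highest in 2 medullary stroma-like clusters, with 423 CPM (344 to 514) in 61 nuclei, which were also led by genes of cell division, and 363 CPM (329 to 399.9) in 418 nuclei. It was lowest among clusters of at least 50 nuclei in 65 nuclei led by Ebf2 and Tnxb, with 64.4 CPM (35.2 to 108). At P3 the highest level, 453 CPM (395 to 516), was in an unnamed cluster of 115 nuclei led by Unc13c, Smoc2, Zfp536 and Cpa6, genes that also led the medullary stroma-like cluster of 418 nuclei at E18.5. The lowest was 56.0 CPM (28.9 to 97.8) in 56 nuclei led by Luzp2, Caln1 and Col6a5. The cortical stroma-like cluster of 601 nuclei at P3 had 209 CPM (190.2 to 229.5). At E18.5 the highest Hoxd11 levels lay in the 2 clusters that met the medullary marker rule, each with 4 of 5 markers raised. An unnamed cluster of 188 nuclei, led by Corin and Lef1, also had 4 of 5 raised and ranked below them. The highest cluster at P3 had 2 of 5 raised and did not meet the rule. Other unnamed P3 clusters, of 322 and 604 nuclei, had 3 and 2 of 5 raised and lower levels. Hoxd11 is thus not read as following the medullary markers.

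Hoxa10 also varied between stromal clusters. At E18.5 it had 276 CPM (235 to 321) in 188 unnamed nuclei led by Corin and Lef1, where 4 of 5 medullary markers were raised. In the 964 nuclei led by Nrp2 and Fam129a, also unnamed, it had 106 CPM (94.2 to 119). At P3 it had 195 CPM (158 to 239) in the Unc13c cluster and 74.1 CPM (63.0 to 86.6) in the cortical stroma-like cluster. In the same clusters Hoxc6 had 68.9 CPM (49.4 to 93.4) and 168 CPM (153 to 184) at E18.5, and 121 CPM (92.4 to 157) and 168 CPM (151 to 186) at P3, with intervals that did not overlap at E18.5 and overlapped at P3. The summed Hox level of these stromal clusters spanned a narrower range than Hoxd11 did, from 1435 CPM (1280.2 to 1603) to 2047 CPM (1869 to 2238) at E18.5, where the ratio of the ends was far below that of Hoxd11.

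Of the Hox11 paralogs together, interstitium-like nuclei had 288 CPM at E18.5 and 245 at P3, nephron progenitor-like nuclei 209 CPM at E18.5 and 212 at P3 and ureteric epithelium-like nuclei 47.9 CPM at E18.5 and 23.2 at P3. The leukocyte-like level was 76.2 (51.0 to 109) and 24.8 (11.9 to 45.6) CPM, so the ureteric level was no higher than the reference. The counts gave a progenitor-like to ureteric ratio of 4.37 at E18.5, with an interval from 3.76 to 5.11, and of 9.13 at P3, from 7.01 to 12.1. The denominator is at the reference level, so neither is read as a fold of expression, nor are they compared. The P3 ratio was 3.33 when called doublets were removed before clustering, and the ureteric epithelium-like class then took in a cluster of 329 nuclei with a Hox11 sum of 125 CPM. That cluster was led by Nrcam and Pappa2 and had 4 of 11 ureteric markers raised. In the same clustering the Ros1 and Slc14a2 clusters had Hox11 sums of 26.5 and 24.2 CPM. Hoxd11 gave most of the interstitial sum, with Hoxa11 at 24.5 CPM at E18.5 and 20.03 at P3 and Hoxc11 at 6.57 CPM at E18.5 and 8.03 at P3. Of the Hox10 paralogs, interstitium-like nuclei had 232 CPM at E18.5 and 190.3 at P3, which was 0.81 (0.767 to 0.856) and 0.752 (0.699 to 0.810) times the progenitor-like level. The Hox10 sum was thus lower in the interstitium-like than in the progenitor-like nuclei, whereas the Hox11 sum was higher.

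Not all paralogs of a group had the same leading class. In group 4, Hoxb4 and Hoxd4 were first in ureteric epithelium-like nuclei at both ages, with 264 CPM at E18.5 and 262 at P3 and with 213 CPM at E18.5 and 196 at P3, and Hoxc4 was at 11.3 CPM at E18.5 and 9.05 at P3 there, where its leukocyte-like level was 7.88 (1.63 to 23.0) and 29.7 (15.4 to 52.0). The first rank of Hoxb4 at E18.5 was not resolved from early nephron-like nuclei, with a ratio of 1.04 (0.949 to 1.13). In nephron progenitor-like nuclei Hoxc4 had 175 CPM at E18.5 and 217 at P3 and Hoxd4 86.1 CPM at E18.5 and 69.6 at P3. These 3 genes encode closely related proteins, of which Hoxc4 had another leading class than the other two, and the 300 bases around each start are shown, from 250 before to 50 after, as RefSeq gives them on GRCm38.p6. All lie on the plus strand, Hoxb4 at chr11:96318017-96318316, Hoxc4 at chr15:103034145-103034444 and Hoxd4 at chr2:74721728-74722027. Capitals mark matches to TGATNNAT, a form of the site bound by PBX with HOX proteins, or TTTATNG, a form of the site bound by posterior HOX or CDX proteins, on either strand.
Hoxb4: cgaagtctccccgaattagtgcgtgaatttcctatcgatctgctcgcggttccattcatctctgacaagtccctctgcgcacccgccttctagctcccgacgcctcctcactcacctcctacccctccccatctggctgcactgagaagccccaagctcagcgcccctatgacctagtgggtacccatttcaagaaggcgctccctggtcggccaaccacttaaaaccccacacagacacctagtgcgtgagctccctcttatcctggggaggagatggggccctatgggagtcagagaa
Hoxc4: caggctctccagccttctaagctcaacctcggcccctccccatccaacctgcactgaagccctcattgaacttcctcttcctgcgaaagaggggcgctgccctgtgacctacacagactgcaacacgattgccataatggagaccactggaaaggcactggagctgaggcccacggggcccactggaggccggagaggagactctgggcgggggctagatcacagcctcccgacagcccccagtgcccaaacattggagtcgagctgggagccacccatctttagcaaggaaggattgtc
Hoxd4: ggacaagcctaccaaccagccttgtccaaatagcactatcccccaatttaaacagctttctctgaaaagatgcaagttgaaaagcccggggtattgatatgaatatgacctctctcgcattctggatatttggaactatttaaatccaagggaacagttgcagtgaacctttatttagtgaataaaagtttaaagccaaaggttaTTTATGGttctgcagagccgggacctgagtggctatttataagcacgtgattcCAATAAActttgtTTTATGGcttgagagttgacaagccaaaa

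The Hoxd4 sequence held 3 matches to TTTATNG and 1 to TATAAA, the TATA box, while those of Hoxb4 and Hoxc4 held none of the 3 motifs. The RefSeq starts of Hoxc4 and Hoxd4 lie inside the longer spans that GENCODE gives for these genes, so other starts exist. The sequences held 14, 9 and 4 CG pairs in the order shown. Of all 32851 promoters in the table, 8.85% held TGATNNAT, 10.9% TTTATNG and 13.6% TATAAA, and of the 24 promoters of the 22 members listed there, 4, 2 and 4 did. The median number of CG pairs was 7 over all promoters and 14.5 over those of the members. These matches are letters in a window and were not tested for binding.

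Profiles over the 13 classes were compared by Pearson's r on log2 levels for the 27 members with at least 500 UMIs at both ages, as a description without a test. Pairs of neighbors in a cluster had a median r of 0.79 at E18.5 and 0.85 at P3 over 21 pairs, and pairs further apart in a cluster 0.64 and 0.75 over 58 pairs. Paralogs had 0.21 and 0.40 over 26 pairs, and other pairs 0.11 and 0.24 over 246 pairs. Position in a cluster therefore went with a like profile more than the paralog number did. All points share the same classes, libraries and free transcripts, and genes that overlap share reads.

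Single pairs show the range. Hoxb5 and Hoxb6 had r of 0.97 at E18.5 and 0.95 at P3, and Hoxc9 and Hoxc10 had 0.87 and 0.97. Hoxb4 had -0.11 and -0.08 with its paralog Hoxc4, but 0.81 and 0.83 with Hoxd4. In the D cluster, Hoxd3 and Hoxd4 had 0.95 and 0.92, Hoxd10 and Hoxd11 had 0.85 at both ages, and Hoxd4 and Hoxd11, from either end, had 0.16 and 0.29. Among paralogs, Hoxa11 and Hoxd11 had 0.76 and 0.67. Between the ages, the r of each member with itself had a median of 0.84, from 0.23 for Hoxb7 to 0.95, and 8 members were above 0.9.

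No member was 2-fold higher in proximal tubule-like nuclei at either age. In the other direction, 12 of 31 members were 2-fold lower there than in other nuclei at E18.5, where 11.3% of genes were, and 23 of 30 at P3, where 22.1% were. Hoxa9 was among those that were not lower, with 149 CPM at E18.5 and 161 at P3. The proximal tubule-like class joined clusters of unlike level, with a Hox sum of 1411 CPM (1379.7 to 1442) in the cluster led by Grid1 and Cdh6 and 787 CPM (749 to 826) in that led by Slc22a27 and Aadat at E18.5. Early nephron-like nuclei had 4 members 2-fold higher at E18.5, Hoxb3, Hoxb4, Hoxb5 and Hoxb6, where 2.9% of genes were, and 6 at P3, Hoxb2, Hoxb3, Hoxb4, Hoxb6, Hoxb8 and Hoxc11, where 4.11% were. The class was led by other genes at P3 than at E18.5, and its levels are not compared between the ages.

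Endothelium-like nuclei had 14 members 2-fold lower at E18.5, where 15% of genes were, and 19 at P3, where 19.7% were. Their B cluster sum of 389 (368 to 411) and 351 (330.1 to 373) CPM was above the leukocyte-like reference, and was the largest share of their Hox UMIs. Leukocyte-like nuclei had 20 members 2-fold lower at E18.5, where 27.5% of genes were, and 25 at P3, where 31.4% were. Low levels in this class were frequent among all genes as well.

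In single nuclei, transcripts of a member were sparse. After each nucleus was thinned to 1000 UMIs, a Hox UMI was found in 91.8% (90.8 to 92.8) of nephron progenitor-like nuclei at E18.5 and 95.3% (93.5 to 96.7) at P3, and in 48.4% (40.4 to 56.5) and 28.6% (20.9 to 37.3) of leukocyte-like nuclei. Median depths before thinning were 3167 and 4723.5 UMIs in the former and 2300.5 and 2870.0 in the latter, and 10 progenitor-like nuclei and 1 leukocyte-like nucleus at E18.5 were too shallow to be included. Progenitor-like nuclei held on average 2.59 and 2.83 different members. Hoxb6 was found in 33.6% (30.8 to 36.4) and 40.4% (35.8 to 45.2) of ureteric epithelium-like nuclei, and in 5.66% (2.62 to 10.5) and 1.59% (0.193 to 5.62) of leukocyte-like nuclei. Without thinning the ureteric shares were 70.6% and 88.4%. A C cluster UMI was found in 54.6% (52.8 to 56.4) and 61.6% (58.0 to 65.1) of progenitor-like nuclei, and in 5.68% (4.40 to 7.20) and 3.65% (2.10 to 5.86) of ureteric epithelium-like nuclei, where the leukocyte-like share was 9.43% (5.38 to 15.1) and 2.38% (0.494 to 6.80). The ureteric and leukocyte-like intervals for the C cluster overlapped at both ages, so the ureteric share was not resolved from the reference.

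**Figure D5:**
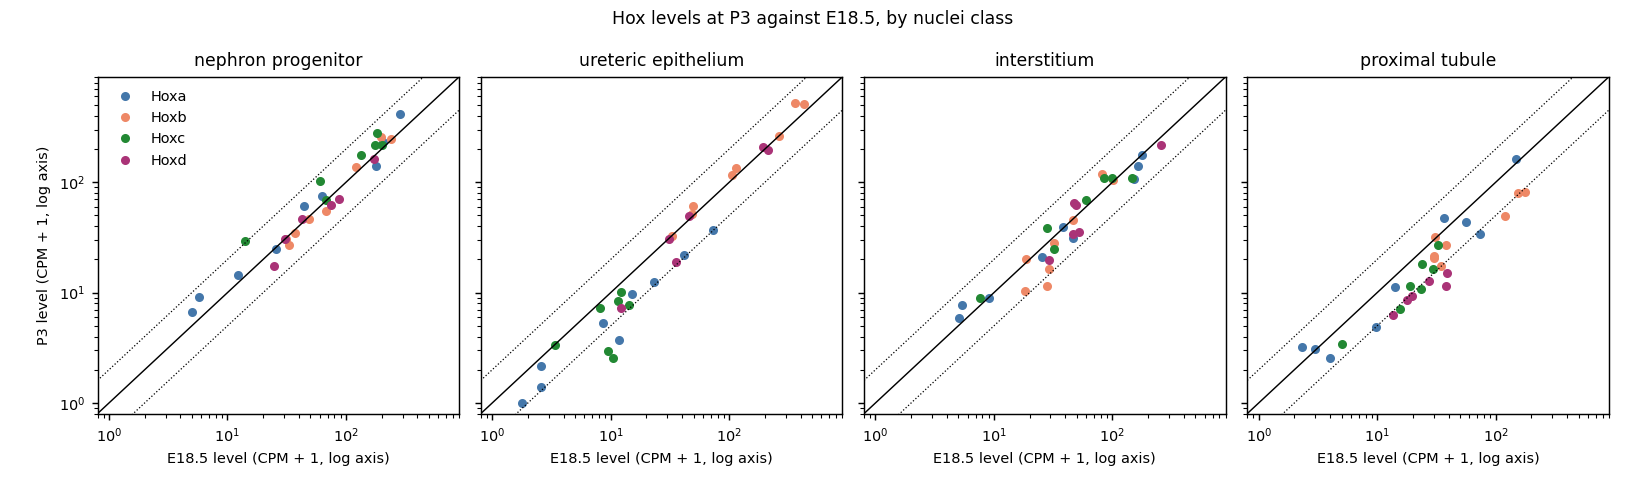
Each point is a member, with its level at E18.5 on the horizontal and at P3 on the vertical log axis (CPM, 1 added), in nephron progenitor-like, ureteric epithelium-like, interstitium-like and proximal tubule-like nuclei; the solid line marks equal levels and the dotted lines a 2-fold difference. In proximal tubule-like nuclei 12 members lie below the lower dotted line, and in interstitium-like nuclei 1 does.

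Most members had similar levels at the 2 ages within a class, as the plot of P3 against E18.5 levels shows. The Hox sum at P3 was 1.15 (1.13 to 1.17) times that at E18.5 in nephron progenitor-like nuclei, 0.934 (0.916 to 0.952) times in interstitium-like nuclei and 1.07 (1.04 to 1.11) times in ureteric epithelium-like nuclei. It was 0.620 (0.601 to 0.639) times in proximal tubule-like, 0.742 (0.701 to 0.784) times in endothelium-like and 0.556 (0.453 to 0.680) times in leukocyte-like nuclei. The lowest of these ratios was that of the leukocyte-like reference, and its interval overlapped that of the proximal tubule-like class. The matrix headers name another Cell Ranger version at each age, and its part in these and the following age ratios was not tested. Interstitium-like and proximal tubule-like nuclei came from clusters with other leading genes at each age, so their make-up differs too. For the proximal tubule-like class the clusters with Aadat and Slc7a12 among their leading genes went the other way, with a Hox sum of 787 CPM (749 to 826) at E18.5 and 1026 CPM (983 to 1070.3) at P3. The E18.5 class also held the cluster led by Grid1 and Cdh6, with 1411 CPM (1379.7 to 1442), while a cluster with those leading genes was named early nephron-like at P3.

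In nephron progenitor-like nuclei, the C cluster was 1.31 (1.27 to 1.36) times as high at P3 and the D cluster 0.900 (0.848 to 0.955) times. Of 32 members, Hoxc11 was 2-fold higher at P3, with a ratio of 2.13 (1.64 to 2.76), where 3.13% of all genes were, and none was 2-fold lower. Hoxc9 had a ratio of 1.70 (1.49 to 1.93), Hoxc5 of 1.54 (1.43 to 1.67) and Hoxa9 of 1.46 (1.37 to 1.55), while Hoxa10 had 0.785 (0.712 to 0.865). The median of the members was 0.08 on the log2 scale, against -0.11 for all genes tested.

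In ureteric epithelium-like nuclei the clusters moved apart. The B cluster was 1.20 (1.16 to 1.25) times as high at P3, with Hoxb3 at 1.45 (1.35 to 1.57) and Hoxb6 at 1.19 (1.10 to 1.28), and the D cluster 0.967 (0.901 to 1.04) times. The A cluster was 0.501 (0.428 to 0.585) times and the C cluster 0.568 (0.441 to 0.727) times as high. Their leukocyte-like levels, which the ureteric levels did not exceed, changed in the same way, 0.452 (0.293 to 0.686) times for the A and 0.556 (0.317 to 0.955) times for the C cluster. The part of free transcripts in the ureteric ratios of the A and C clusters was not tested. In all, 3 members were 2-fold lower, Hoxa11, Hoxc9 and Hoxc10, where 11.4% of genes were. Within the Ros1 cluster the B cluster ratio was 1.27 (1.20 to 1.33), and within the Slc14a2 cluster 1.10 (1.03 to 1.18).

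In interstitium-like nuclei 1 of 32 members, Hoxb7, was 2-fold lower at P3, with a ratio of 0.390 (0.316 to 0.478), where 8.58% of genes were. Its interstitial levels of 26.8 (23.7 to 30.2) and 10.4 (8.82 to 12.3) CPM were not resolved from the leukocyte-like levels of 36.8 (20.1 to 61.7) and 2.48 (0.0628 to 13.8), and the part of free transcripts in this ratio was not tested. In proximal tubule-like nuclei 12 members were 2-fold lower, where 15.5% of genes were. Among them Hoxb4 had a ratio of 0.411 (0.366 to 0.461), from 119 to 48.9 CPM against leukocyte-like levels of 26.3 and 19.8. Hoxd11 had 0.284 (0.222 to 0.359), but its levels of 36.8 and 10.4 CPM were no higher than the reference of 60.4 and 24.8. The D cluster sum, at 149.7 and 57.5 CPM, was not above its reference of 152 and 94.2 either. In the same class Hoxa9 had 1.08 (1.003 to 1.17) and Hoxa7 had 1.31 (1.12 to 1.53). The A cluster sum stood at 0.890 (0.843 to 0.939) times there. In endothelium-like nuclei Hoxa9 and Hoxd11 were 2-fold lower, where 10.3% of genes were, with ratios of 0.485 (0.400 to 0.585) and 0.457 (0.3296 to 0.626). Their P3 levels, 53.0 and 18.9 CPM, stood against leukocyte-like levels of 27.3 and 24.8 CPM.

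Genes that act with or on Hox genes were described from 4 lists, all with a 2-fold limit against other nuclei. PBX, MEIS and PKNOX proteins bind DNA together with HOX proteins, and all 9 genes had at least 50 UMIs. Of these, 5 at E18.5 and 7 at P3 were 2-fold higher in at least 1 class. Of all genes with at least 50 UMIs, 48.5% at E18.5 and 57.4% at P3 were, which is the rate against which this and the following list counts stand. In interstitium-like nuclei 2 of the 9 at E18.5 and 5 at P3 were 2-fold higher, where 3.59% and 5.9% of all genes were. None was in nephron progenitor-like nuclei, where 2.47% and 4.93% of all genes were, or in ureteric epithelium-like nuclei, where 5.3% and 6.07% were. At such shares the absence of 9 genes says little. The genes of this list that passed included Pbx2, Meis1, Meis2 and Pknox2 at both ages, with Pbx4 and Meis3 at P3. Meis2 was first in endothelium-like nuclei with 4629 CPM at E18.5 and 5396 at P3. Meis1 was first in interstitium-like nuclei with 1478 and 2062, and Pknox2 in podocyte-like nuclei with 297 and 363. In nephron progenitor-like nuclei, where the Hox sum was highest among the named classes, Meis2 had 2742 and 2456 CPM. In ureteric epithelium-like nuclei it had 203 and 279. These 3 genes were taken from those that passed the limit, and none of the list passed it in nephron progenitor-like nuclei. Their leading classes were therefore largely set by that choice and are not set against the Hox sum. Levels of the other genes of the list are not given here.

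Polycomb and Trithorax proteins keep Hox genes silent or active. Of 17 such genes, 1 at E18.5 and 4 at P3 were 2-fold higher in any class. Among them were Cbx7 at both ages, in loop of Henle-like and distal tubule-like nuclei at E18.5, and Cbx2 and Cbx8 at P3. Cbx2 was 2-fold higher in nephron progenitor-like nuclei, with 7.79 CPM. Ezh2, the Polycomb methyltransferase, was first in nephron progenitor-like nuclei with 338 and 297 CPM, without reaching 2-fold. Of 7 caudal and signal regulators, 4 had at least 50 UMIs, and Cdx2 and Cdx4, which act on Hox genes in the early embryo, had 0 UMIs at both ages. Of the 4, only Rarg was 2-fold higher in any class at E18.5, and Rarg, Rarb and Gdf11 were at P3. Rarb, a retinoic acid receptor, was first in endothelium-like nuclei with 331 and 896 CPM.

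Of 9 non-coding genes inside the Hox loci, 8 had at least 50 UMIs at each age and Hottip had 0 at E18.5 and 1 at P3. Of the 8, 3 at E18.5 and 6 at P3 were 2-fold higher in at least 1 class, Hoxd3os1, Hoxb5os and Hoxb3os at both ages and Hoxaas2, Hoxaas3 and Hotair at P3. Hoxb3os, a gene named for its place on the other strand at Hoxb3, was first in proximal tubule-like nuclei with 125 and 219.6 CPM, where Hoxb3 had 176 CPM at E18.5 and 80.4 at P3. Since Hoxb3 was first in early nephron-like or ureteric epithelium-like nuclei, the 2 strands had different leading classes. Hoxd3os1 was 2-fold higher in the loop of Henle-like, distal tubule-like and ureteric epithelium-like classes at both ages, with 166 CPM in loop of Henle-like nuclei at E18.5 and 214 in distal tubule-like nuclei at P3, the classes in which Hoxd8 was also high. Hotair, from the C cluster, was first in nephron progenitor-like nuclei with 1.92 and 4.94 CPM. Of the 39 members, 14 overlap a gene on the other strand, and the sources used here do not state whether the counting used strand.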

How the data were processed

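Nuclei were isolated from pooled kidneys at each age and sequenced as 10x 3′ libraries, so nuclear RNA was measured. The authors deposited UMI counts per gene and barcode, 1 matrix per age. The submitters' processing notes give Cell Ranger 5.0.1 and mm10 for both, whereas the header of the E18.5 matrix gives 7.0.0 and that of P3 gives 5.0.1. Whether introns were counted, and the annotation release, are not given in the sources used here.

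The members and lists were chosen with earlier results of these data known. Barcodes whose log UMIs or genes lay below the median by over 3 median absolute deviations (MADs) were removed, 112 of 21600 at E18.5 and 0 of 12216 at P3. So were those above the median mitochondrial share by more than the larger of 3 MADs and 0.5 percentage points, 218 and 451. Scrublet, set to an expected rate of 0.1, called 16.4% and 16.8% of nuclei doublets, which were kept, and clusters with over 50% of them stayed unnamed. Clusters came from scran 1.30.0 (deconvolution, 2000 variable genes, 50 components, 10 neighbors, Walktrap), with Hox-locus features and the listed genes left out. A marker was raised with at least 10 UMIs and a 2-fold level over other nuclei after 10 CPM was added to each. A cluster also stayed unnamed where a second class reached over 0.8 of the share of markers raised for the first, where its leading genes held more markers of another class, where hemoglobin genes were raised without Alas2, where no mural marker was among the leading genes of a mural-like cluster, or where it was shallow and led by none of its markers. The limits on doublets and on mural-like clusters were set after clusters were seen. Calls of 2-fold used all other nuclei, unnamed ones included, added 1 CPM and took genes with at least 50 UMIs. Every member is named with its leading class, in full for those highest in a class and for paralog groups. Levels have exact Poisson, shares exact binomial and ratios exact conditional binomial intervals. On simulated counts the ratio intervals covered 95.5% of changed genes at E18.5 and 97% at P3. These counts were drawn with counting error alone, so the coverage says nothing of variation between nuclei or libraries. Positions are from GENCODE M21, and promoters from RefSeq, both on GRCm38. With 1 library per age no test between conditions was run. Alternatives covered doublets, neighbors, Leiden clustering, quality limits, means over nuclei, thresholds, thinning depth, stromal clusters and overlapping members. Values of a few genes are not reported here.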

Additional observations from a re-analysis of the deposited data

How the results depend on the processing

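For 24 results, 105 values were computed under alternatives, of which 29 were chosen after seeing the data. These came from stromal clusters added to the interstitium-like class, the naming rule on doublets dropped, and members with same-strand overlap left out. Of the planned ones, 61 of 76 were labeled unchanged, and 20 of the 29 added ones were. Ratios and shares were unchanged if they stayed within the counting interval of the main value. Counts of members at least 2-fold higher have no such interval and were unchanged if they stayed within a fixed fold of the main count. No paired analysis was possible because each age has 1 library, and for the same reason none could be left out. The Hox sum of interstitium-like over other nuclei at P3 was 1.02, 1.06 without called doublets, 1.01 with 20 neighbors (1.0084) and with Leiden clustering (1.0079), 1.04 without quality limits and 1.07 as a mean over nuclei. It turned to 0.998 with stromal clusters added and 0.918 without overlapping members, and at E18.5 it went from 0.986 to 0.967 and 0.921, so its direction at P3 depends on these choices. The Hox11 ratio of nephron progenitor-like to ureteric epithelium-like nuclei at P3 went from 9.13 to 3.33 without doublets. The Hox10 ratio of interstitium-like to progenitor-like nuclei went from 0.810 to 0.918 at E18.5 and from 0.752 to 0.898 at P3 without overlapping members, and to 0.690 at P3 without quality limits. The B share of ureteric Hox UMIs went from 64.8% to 63.5% at E18.5 and from 72.8% to 62.3% at P3 without doublets, and to 83.6% and 90.2% without overlapping members. Without doublets the P3 ureteric epithelium-like class took in the cluster of 329 nuclei, which had 4 of 11 ureteric markers raised. The values of 62.3% and 3.33 thus belong to a class of other make-up. The 11 members left out for same-strand overlap included no B cluster gene, so the B share had to rise without them. The Hox10 sum then lacked Hoxc10. Values without overlapping members thus describe a smaller gene set, and do not show how overlapping reads were divided. For the remaining changes the cause was not tested. The P3 to E18.5 ratio of the Hox sum was 0.962 as a mean over nuclei in the interstitium-like class, and in the ureteric epithelium-like class 1.21 without doublets, 1.12 as a mean (1.1151) and 1.12 without overlapping members (1.1164). Thinning to 2000 UMIs raised the share of nuclei with a Hox UMI from 80.9% to 94.7% at E18.5 and from 75.8% to 90.9% at P3. With 10 CPM added, 3 in place of 6 members were 2-fold higher in early nephron-like nuclei at P3. With 20 neighbors and with Leiden clustering no cluster met the interstitium-like rule at E18.5 or the progenitor-like rule at P3, so 10 values could not be given.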

Other observations

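An unnamed cluster of 109 nuclei at P3, led by Plppr1, Scnn1b and Scnn1g, had a Hox sum of 3404 CPM (3248 to 3567), which is above that of the nephron progenitor-like class. It had 6 of 11 ureteric markers raised, with a distal tubule class close behind, and so received no name. With called doublets removed before clustering, 106 of these nuclei fell in the cluster of 329 nuclei that was then named ureteric epithelium-like. In the unnamed cluster Hoxa9 had 657 CPM (590 to 731) and Hoxb3 had 556 CPM (493 to 623). In ureteric epithelium-like nuclei at P3 Hoxa9 had 36.2 CPM (29.2 to 44.4) and Hoxb3 had 525 CPM. The Hoxa9 level there was not resolved from the leukocyte-like 27.3 CPM (13.6 to 48.8), while that of the unnamed cluster lay far above both. The cluster was noticed after its values were seen, and it rests on a single library.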
